A study of Oreochromis niloticus and Pundamilia nyererei with 6 samples.

Results

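Liver loci of ON (Oreochromis niloticus, the Nile tilapia) were described across 3 fish. A locus was built by joining stranded transcripts whose start to end spans shared at least 1 base on the same sequence and strand, and its level was the sum of the FPKM of its transcripts (mapped fragments scaled to transcript length in kilobases and to library size in Mio). This gave 23392 loci in ON, of 43534 loci in the whole series, where the liver of PN (Pundamilia nyererei) supplies the other 20142. The 33084 stranded transcripts of the ON set were used, and transcripts listed without a strand were not. The joining used positions only. The transcripts themselves were assembled from the reads of these fish with the reference annotation, and the paper describes a removal of unexpressed ones. Levels therefore bear on which loci exist here.

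All 3 fish were tank-reared males of one stock from Manzala, Egypt, at about generation 93, with 1 liver library each. The sources used here do not give their age, and nothing but the individual distinguishes them. There is therefore one group and no comparison between groups. A difference between fish has no replicate check, because fish and library cannot be told apart, and no p-value is given. Errors are SD over the 3 fish.

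The liver makes most of the proteins of blood plasma, stores and releases energy, and turns over lipids, amino acids and foreign compounds. Hepatocytes form most of its mass, and secreted plasma proteins are known as a large part of what they transcribe. Bile duct cells, vessel walls, resident immune cells and blood contribute RNA to any sample of the whole organ. The transcripts carry serial names and no gene symbol, so the markers of these cell types could not be looked up and the tissue label was not checked against them. In RNA of a whole organ, fewer cells of a type and less RNA per cell cannot be told apart. Loci are called here by the serial name of their most abundant transcript, with positions on ASM185804v2. Genes are named only on the mitochondrial sequence, where start and end were the same as those of a named gene.

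Depth was nearly the same in the 3 libraries. Coverage and FPKM together give aligned bases equal to 13.2 to 13.3 Mio read pairs per library, at 150 bases a pair. This is more than the average number of pairs that the labels state as generated, and the cause was not tested. Fragment numbers given here may therefore be too high and serve to compare loci and fish. The loci held 93.2%, 89.9% and 91.5% of these bases in fish 1, 2 and 3, and where the rest lay was not examined. At this depth 3 fragments on a transcript of 1000 bases correspond to an FPKM of 0.225 to 0.227. Where fragments are given below they were computed from coverage and length, and they cover counting error only.

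Most loci were detected at a low level, and about the same number reached any given level in each fish. Of the 23392 loci, 20458, 20163 and 20182 were above 0 in fish 1, 2 and 3, and 74 were listed at 0 in all of them. An FPKM of at least 1 was reached by 11319 ± 48 loci (SD, n = 3), an FPKM of at least 10 by 2683 ± 205, and an FPKM of at least 100 by 493 ± 21. Levels of at least 1000 were reached by 93, 88 and 97 loci, and levels of at least 10000 by 12, 9 and 8. A locus was called expressed where it reached an FPKM of 1 in 1 or more fish, which held for 12721 loci (54.4%). Of these, 9900 reached it in all 3 fish, 1435 in 2 and 1386 in 1. Over expressed loci the median FPKM was 3.18, 3.53 and 3.54, while the mean was 58.6, 51.3 and 53.9. The gap between median and mean shows that a few loci carried most of the signal.

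The share carried by those few loci was large in every fish and differed between fish. In fish 1, 17 loci held 50% of the summed FPKM, against 33 in fish 2 and 27 in fish 3. The 10 most abundant loci of a fish took 43.0%, 32.8% and 37.9% of its summed FPKM, a mean of 37.9% ± 5.1 (SD, n = 3). The 100 most abundant took 70.6%, 65.0% and 66.0%, and the 1000 most abundant took 92.1%, 90.1% and 90.3%. The fish thus differed more in the share of the leading 10 loci than in that of the leading 100 or 1000. Several leading transcripts are short, and FPKM divides by length. With loci ranked by aligned bases instead, the 10 leading loci of a fish took 22.7% ± 3.2 (SD, n = 3) of the bases held by loci. These are not all the same loci as the 10 leading by FPKM. Of the 10 most abundant loci of each fish by FPKM, 7 were shared by all 3 fish and 13 occurred in any of them. For the 100 most abundant the numbers were 77 and 121.

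**Figure D1:**
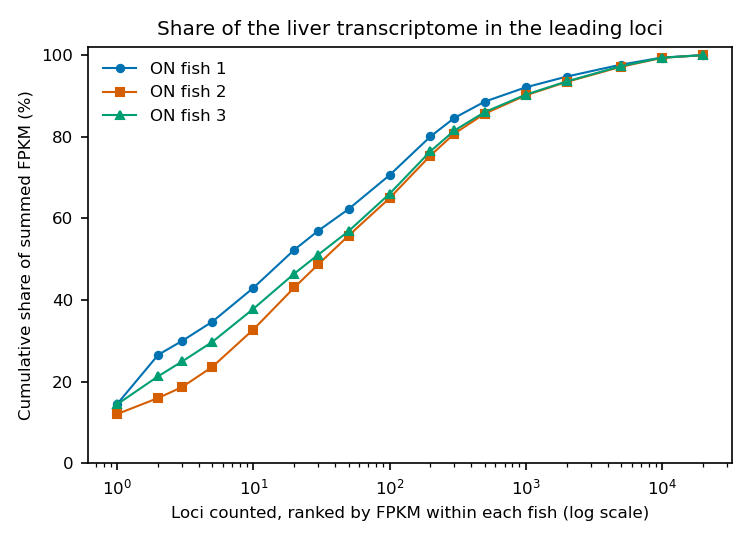
Cumulative share of summed FPKM (y axis, percent) against the number of loci counted from the most abundant down (x axis, log scale), one line per ON fish. The line of fish 1 runs above the others from 2 loci (26.6%, against 16.02% in fish 2 and 21.4% in fish 3) to 100 loci (70.6%, 65.0% and 66.0%).

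The 2 most abundant loci lay on the same chromosome sequence, NC_031978.1, and behaved differently between fish. The first, mRNA2123, lies on the plus strand from 17991050 to 18001683, holds 5 overlapping transcripts, and was at an FPKM of 89865, 79118 and 99667 in fish 1, 2 and 3 (mean 89550 ± 10278, SD, n = 3). Its level stayed within a factor of 1.26 between the highest and the lowest fish. The second, mRNA23082, lies on the minus strand from 17359775 to 17387401 and was at 108909, 25699 and 47236. Fish 1 was thus 4.24-fold above fish 2 and 2.31-fold above fish 3. It was the leading locus of fish 1 and the second of the others.

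Between these 2 loci lie 603648 bases with 36 other loci. Their median mean FPKM was 2.62 and the highest was 151, so the sequence between the leading loci was transcribed at ordinary levels. Directly beside mRNA23082, mRNA23081 was at 122, 107 and 128 in the 3 fish and mRNA23084 at 1.46, 1.63 and 2.18. Neither neighbour followed the order of mRNA23082. Both leading loci are made of short spliced transcripts, of at most 587 bases in mRNA2123 and 389 in mRNA23082.

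Inside mRNA2123 the 2 main transcripts kept their shares and the 3 minor ones did not. The 2-exon transcript of 299 bases that names the locus held 53.1%, 51.3% and 51.0% of the locus in the 3 fish, and the 4-exon transcript of 587 bases held 23.6%, 24.2% and 24.0%. Among the remaining 3 transcripts, mRNA2124 was at 14654, 2973 and 11744, while mRNA2121 was at 1202, 8555 and 1378. These transcripts overlap, and StringTie divides reads between overlapping transcripts.

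The next loci in rank differed less between fish than mRNA23082. The third, mRNA24718 (NC_031979.1, plus strand, 30441132 to 30443193, 4 exons, 1206 bases), was at 25474, 17597 and 24946, with fish 2 the lowest. The fourth, mRNA3262, is the mitochondrial rRNA gene of 1699 bases, at 20889, 14849 and 13547. It was measured in libraries that had been depleted of rRNA. In sixth place stood mRNA22874 (NC_031978.1, plus strand, 11615598 to 11615918), a single exon of 321 bases at 14313, 12648 and 17468. The sequence NC_031978.1 thus held 3 of the 6 leading loci.

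A group of abundant neighbours lay on NC_031976.1, on the minus strand. The locus mRNA19712 (13976675 to 13981049) was at 13582, 17501 and 15528, and mRNA19717 (13986858 to 13988136) was at 12853, 13032 and 14448. A less abundant locus, mRNA19711, which ends 2077 bases before mRNA19712 begins, was at 1268, 2504 and 1656. Between the abundant ones, mRNA19714 was at 62.1, 12.5 and 47.3. The 4 loci lie next to one another on one strand and span more than 2 orders of magnitude in level.

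Another close pair, on NC_031971.1, was steady in both members. The locus mRNA12868 (plus strand, 33808708 to 33814885, 12 exons) was at 6177, 6490 and 6842. The locus mRNA12870 (minus strand, 33820459 to 33829040, at most 8 exons) was at 6414, 5755 and 6621. Between them, mRNA12869 was at 20.4, 18.6 and 21.02. The abundant pair stayed within 1.11-fold and 1.15-fold between the highest and the lowest fish.

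The other steady loci among the leading 20 lay apart from one another. They were mRNA3168 at 5895, 6422 and 6512 (NC_031981.1, minus strand, 30009054 to 30014557), mRNA3123 at 6402, 5579 and 5253 (NC_031981.1, plus strand, 25481423 to 25506868), mRNA18720 at 5229, 6248 and 4976 (NC_031975.1, minus strand, 21980528 to 21982181) and mRNA12690 at 5553, 4806 and 5895 (NC_031971.1, plus strand, 29147477 to 29150573). In each of them the SD was at most 12.3% of the mean. With each fish scaled to its 75th percentile of expressed loci, mRNA3123 passed the limit of 0.5 set for steady loci, at a range of 0.53 on the log2(FPKM + 1) scale, against 0.29 as deposited. Under that scaling 2 of the 20 leading loci changed class and 9 changed the fish that stood apart or its direction.

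Intermediate spreads were seen at 5 more. The locus mRNA36988 (NW_017613966.1, minus strand, 1327 to 26597) was at 12177, 12425 and 6852, with fish 3 the lowest. On NC_031976.1, mRNA19640 (plus strand, 12232905 to 12234040) was at 10170, 11994 and 8198. Fish 2 was the lowest at mRNA35589 (NC_031987.1, minus strand, 10409665 to 10414118), with 11330, 6652 and 10537, and at mRNA36852 (NW_017613886.1, plus strand, 1232891 to 1235256), with 10619, 6434 and 8880. The locus mRNA23761 (NC_031979.1, minus strand, 4284735 to 4307953) joins 8 transcripts and was at 5516, 7843 and 6686. The fish thus ranked differently from locus to locus.

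Besides mRNA23082, 2 of the 20 leading loci differed widely. The locus mRNA20544 (NC_031976.1, minus strand, 31577309 to 31578553, 5 exons, 848 bases) was at 1663, 9646 and 5131, 5.80-fold higher in fish 2 than in fish 1. The locus mRNA12051 (NC_031971.1, plus strand, 13550321 to 13551415) was at 11913, 9476 and 4.87. It was among the leading loci of fish 1 and fish 2, with 47316 and 47364 fragments, and stood at 24.6 fragments in fish 3. Its neighbours mRNA12053 (5.21, 3.89 and 4.46) and mRNA12054 (0.854, 1.04 and 0.857) showed no such drop. In fish 1 the 292-base transcript of this locus held 91.5% of its FPKM, and in the others the 379-base transcript held all of it.

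**Figure D2:**
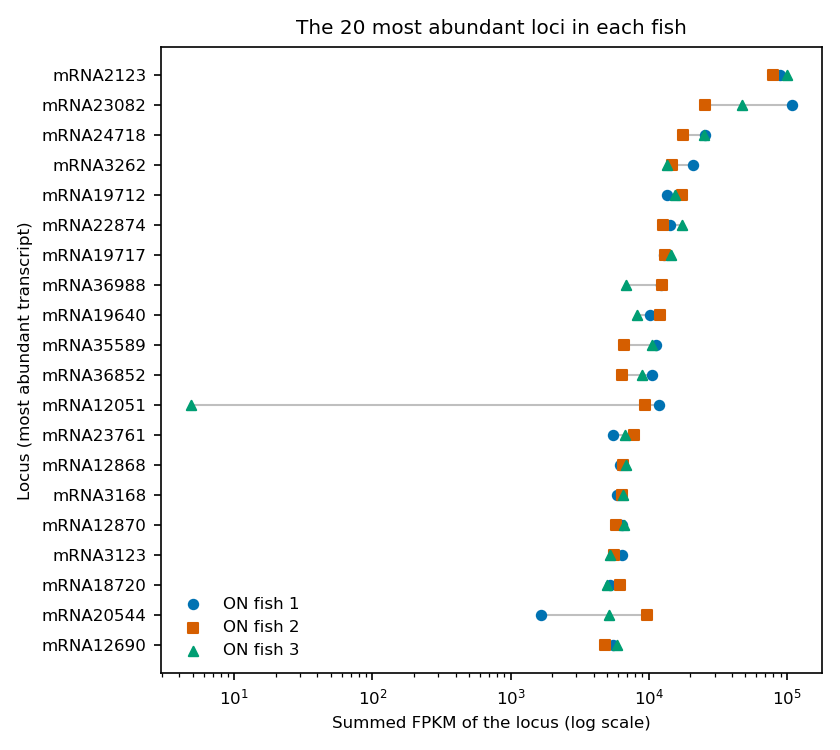
Summed FPKM (x axis, log scale) of the 20 loci with the highest mean in ON liver, one row per locus and one symbol per fish, with a grey line from the lowest to the highest fish. Most rows are narrow, while mRNA23082 (25699 to 108909), mRNA20544 (1663 to 9646) and mRNA12051 (4.87 to 11913) are wide.

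The summed FPKM was unevenly placed on the genome. The ON tables place loci on 23 large chromosome sequences, the mitochondrial sequence and 633 unplaced sequences. The sequence NC_031978.1 held 29.9%, 19.7% and 25.6% of the summed FPKM in the 3 fish (25.1% ± 5.1, SD, n = 3) but only 3.92% of the expressed loci. Its leading locus, mRNA2123, made up 40.2%, 61.3% and 56.7% of this. Without that locus the sequence still held 12.2% ± 5.2 (SD, n = 3), in large part through mRNA23082.

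On NC_031976.1 the share was 7.92%, 12.3% and 9.75%, highest in fish 2, with mRNA19712 at its head. For NC_031971.1 it was 6.50%, 6.83% and 5.59%, and in fish 3 this sequence lacked the contribution of mRNA12051, which made up 24.5% and 21.2% of it in fish 1 and 2. On NC_031979.1 it was 5.77%, 5.95% and 6.48%, of which mRNA24718 made up 59.0%, 45.2% and 55.9%. Without their leading loci the first 3 sequences kept their places, at 12.2%, 7.72% and 5.29%, while NC_031979.1 fell to 2.83%, below the 3.39% of NC_031981.1 counted in the same way. The sequence with the most loci, NC_031972.1, had 1554 loci and 873 expressed ones, and held 3.87% ± 0.45 (SD, n = 3) of the summed FPKM. At the other end, NC_031967.1 held 0.526% ± 0.074 (SD, n = 3).

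Expressed loci were spread more evenly than FPKM. Of the loci on each large sequence, 37.5% to 62.8% were expressed, and 22 of the 23 large sequences held at least 1 of the 100 most abundant loci. Among these 100 loci 6 consecutive pairs lay within 100000 bases of one another, 1 of them the mitochondrial rRNA genes. Most of the 100 thus had no other of them within that distance. The number of pairs was not compared with that of other loci, so it does not show whether abundant loci cluster. Unplaced sequences held 7.14%, 7.30% and 5.93% of the summed FPKM and 951 expressed loci (7.48%), 11 of them among the leading 100.

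**Figure D3:**
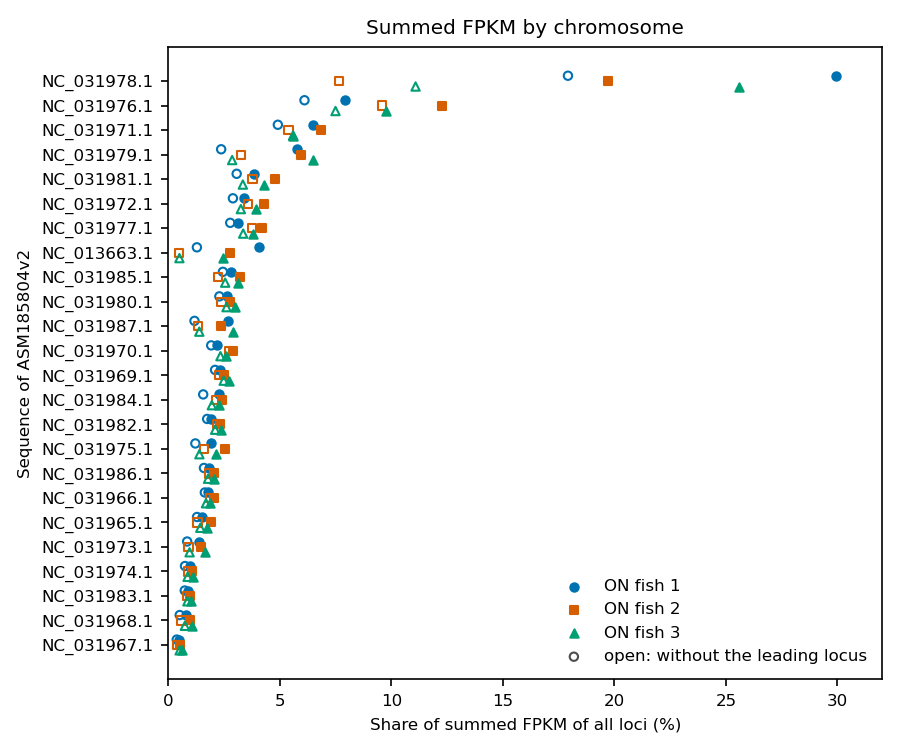
Share of the summed FPKM of all ON loci (x axis, percent) on each of the 23 large sequences and the mitochondrial sequence NC_013663.1, one filled symbol per fish, with the share without the leading locus of the sequence as an open symbol. NC_031978.1 stands at 29.9%, 19.7% and 25.6%, and the leading locus of NC_031979.1 made up 59.0%, 45.2% and 55.9% of its share.

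The mitochondrial genome encodes 13 proteins of the respiratory chain, 2 rRNAs and 22 tRNAs, all named here by position, and forms 33 loci because some genes overlap. These loci held 4.07%, 2.75% and 2.46% of the summed FPKM, most of it in the rRNA genes. The smaller rRNA gene, of 944 bases, was at 7799, 1919 and 2151, so fish 1 was higher in both. Of the protein loci, COX1, a subunit of cytochrome oxidase, was highest, at 712, 523 and 491. The joined locus of ATP8, ATP6 and COX3 (subunits of ATP synthase and cytochrome oxidase) was at 384, 218 and 246, and COX2 at 181, 120 and 111. In all 3 loci fish 1 was the highest. The NADH dehydrogenase genes were much lower. ND1 was at 21.4, 23.1 and 20.4 and ND5 at 5.13, 5.57 and 5.58, both within 0.18 on the log2(FPKM + 1) scale, while CYTB, the gene of cytochrome b, was at 57.0, 47.0 and 52.4. The joined locus of ND4L and ND4 was at 22.1, 18.96 and 7.11, lowest in fish 3. Of the 29 expressed mitochondrial loci 7 (24.1%) were steady and 2 (6.90%) differed by the limits given next, against 51.2% and 3.29% of all expressed loci. However, 18 of the 29 hold tRNA genes alone, with a mean FPKM of at most 63.3, and many of these rest on few fragments. The 2 differing loci were the smaller rRNA gene and the tRNA locus mRNA3288. The latter had 5.65, 0.528 and 3.15 fragments in fish 1, 2 and 3.

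The spread of a locus over fish was taken as the range of log2(FPKM + 1), from the lowest fish to the highest. A locus was called steady at a range under 0.5 (1.41-fold on the FPKM + 1 scale) and differing at a range of at least 2 (4-fold). These limits were set with earlier results of these data known. Steady loci were 6517 of the 12721 expressed ones, or 51.2%, and differing loci were 418, or 3.29%, with 5786 in between. The limit was not a natural gap, as the differing locus nearest to it had a range of 2.001 and the next one outside 1.999.

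Across the 12721 loci, Pearson's r of log2(FPKM + 1) was 0.919 between fish 1 and 2, 0.940 between fish 1 and 3, and 0.935 between fish 2 and 3. Spearman's rho was 0.851, 0.887 and 0.883. These describe loci of the same libraries, which share depth and annotation, and loci are not independent replicates. The median difference was -0.11 for fish 1 minus fish 2, -0.12 for fish 1 minus fish 3 and -0.03 for fish 2 minus fish 3. The bulk of loci was therefore listed slightly lower in fish 1, where the leading loci took the largest share of FPKM. Whether that share sets the shift was not tested.

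Between fish 1 and 2, 135 loci (1.06%) were at least 2 higher on this scale in fish 1 and 156 (1.23%) in fish 2. Between fish 1 and 3 the counts were 82 (0.645%) higher in fish 1 and 80 (0.629%) higher in fish 3. Between fish 2 and 3, 114 (0.896%) were higher in fish 2 and 87 (0.684%) in fish 3. Fish 1 and 2 thus had the most such loci between them and fish 1 and 3 the fewest. These pairs share fish, so the counts are not independent of one another.

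Wide ranges were more frequent at high levels, and so were steady loci at the very top. Among loci with a mean FPKM of 1 to 10, 2.76% of 8910 differed, against 5.76% of 2205 from 10 to 100, 8.72% of 413 from 100 to 1000, and 9.57% of 94 from 1000 up. The share of steady loci over the same classes was 54.7%, 47.3%, 48.2% and 60.6%. A pseudocount of 1 holds down the range of low loci, so the rise in differing loci is in part a property of the scale. With 0.1 in place of 1 the differing loci numbered 1197 in all. Of the 100 most abundant loci, 62 were steady and 9 differed.

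**Figure D4:**
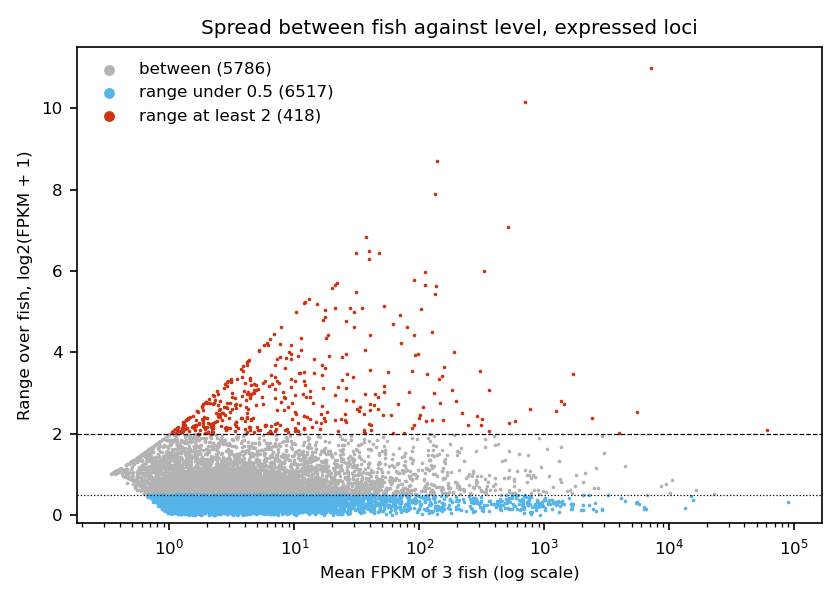
Range over the 3 fish of log2(FPKM + 1) (y axis) against mean FPKM (x axis, log scale) for 12721 expressed loci, with lines at 0.5 and 2. Steady loci (6517) occur at low and high levels, 343 of them at a mean under 1, differing loci (418) reach ranges of 10.99 and 10.16, and the empty upper left is set by the pseudocount.

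Loci also changed in build with level and with spread. The exon number and the length of a locus were each the largest over its transcripts, not always of the same transcript. The median exon number was 8 over all expressed loci, 9 in steady and 4 in differing ones, and the median length was 2471, 2754 and 1386 bases. Models of 2 exons made up 25.4% of differing loci and 8.08% of expressed ones. Single-exon models made up 9.33% of differing, 7.07% of expressed and 3.99% of steady loci. Loci with a mean of at least 1000 had a median length of 1001 bases. Short transcripts were thus more frequent both at the top of the level range and among differing loci, and length, level and spread were not separated further.

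Differing loci were not confined to those with few fragments. In the highest fish the median number of fragments was 281 for differing loci and 147 for all expressed ones, and 340 of the 418 had at least 50 fragments, as did 10197 of the 12721 expressed loci. The limit for differing loci requires a higher level in the highest fish than that for expressed ones. The higher median is therefore in part built in. At an FPKM of at least 10 in 1 or more fish, 244 of 3255 loci (7.50%) differed, and 126 had a range of at least 3. At that minimum 35 loci were listed at 0 in 1 or more fish. A listed 0 can be a failed estimate where reads were given to another transcript, and no fold is given against it.

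The widest range belonged to mRNA12051, at 10.99, with the values given above. In second place, mRNA29070 (NC_031982.1, plus strand, 29553499 to 29578595) was at 0.353, 1547 and 540, which is about 1 fragment in fish 1 against 5018 and 1760 in the others. Its neighbour on the same strand, mRNA29069 (29529888 to 29550090), showed the same order, at 22.9, 386 and 160. Both loci span more than 20000 bases and hold 2-exon models of at most 254 bases. In mRNA29070 the span comes from joining 2 overlapping models, each of a shorter span. The next locus, mRNA17623 (NC_031974.1, plus strand, 21677442 to 21683079) was at 418 in fish 1, with 1702 fragments, and listed at 0 in the others.

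Another locus missing from one fish was mRNA37288 (NW_017614354.1, plus strand, 9734 to 22891), at 237, 164 and 0. On the opposite strand of exactly the same span, mRNA37289 was at 1664, 1523 and 1696, steady in all fish. Whether reads of that strand enter the values of mRNA37288 was not tested. Fish 3 was also the one listed at 0 for mRNA16068 (NC_031973.1, minus strand, 8246538 to 8324591), at 85.9, 55.9 and 0. In contrast, mRNA7600 (NC_031968.1, plus strand, 34869417 to 34871051, 6 exons) was highest in fish 3, at 117, 9.52 and 1412, which is 148-fold above fish 2 and 12.1-fold above fish 1. Fish 3 was also highest for mRNA37867 (NW_017615097.1, minus strand, 1019017 to 1020797, 6 exons), at 7.29, 0 and 85.3.

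Of the remaining loci among the 10 widest, mRNA10788 (NC_031970.1, minus strand, 17465312 to 17468099, 10 exons) was at 113 in fish 2, with 2092 fragments, and listed at 0 in the others. The last 2 also lie opposite more abundant loci, as mRNA37288 does. The locus mRNA24721 (NC_031979.1, minus strand, 30442396 to 30443180) was at 29.8, 0 and 88.8 inside the span of mRNA24718, which is 0.117% and 0.356% of that locus in fish 1 and 3. In the same way mRNA27457 (NC_031981.1, plus strand, 30009215 to 30009571) was at 41.7, 0 and 77.2 inside the span of mRNA3168, or 0.707% and 1.18% of it. In both, fish 2 was listed at 0 and fish 3 was highest. A further locus on the plus strand, mRNA27460 (30014503 to 30016709), was at 2.30, 9.07 and 5.33, with fish 2 highest. It overlaps only the edge of the joined span, through the transcript mRNA3167, which was listed at 0 in fish 2 and 3. Whether reads of the abundant strand enter these low values was not tested.

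**Figure D5:**
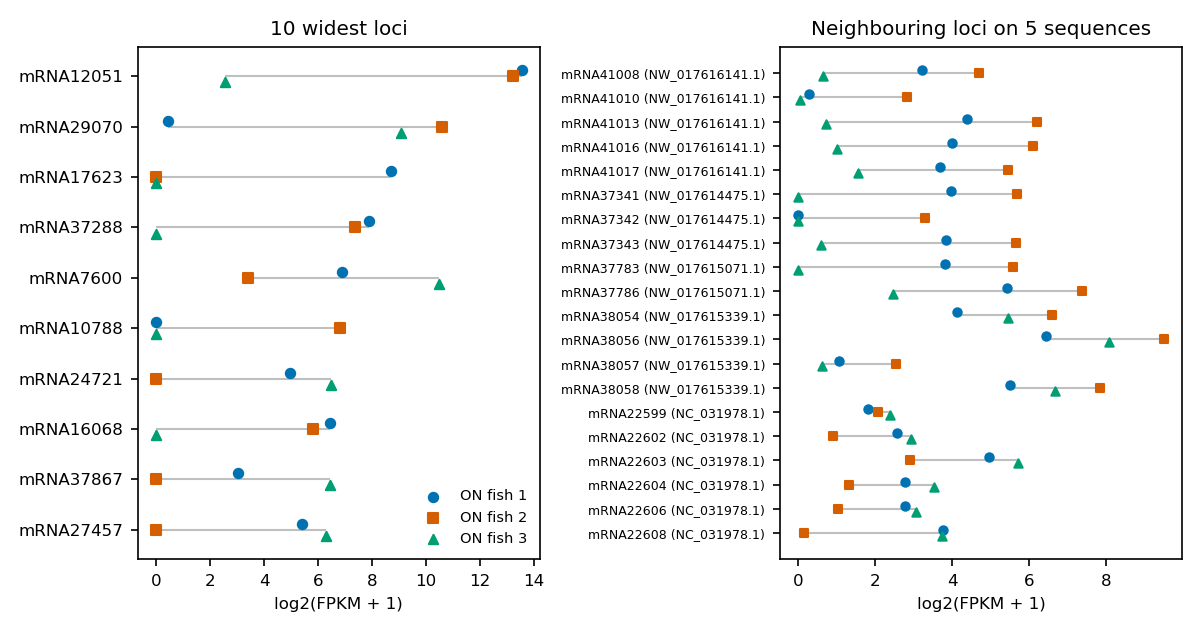
Values of log2(FPKM + 1) (x axis) per fish for the 10 loci with the widest range (left) and for neighbouring loci on 5 sequences (right), one row per locus, with a grey line from the lowest to the highest fish. On the left the fish that stands apart changes from row to row, while on the right the rows of one sequence mostly repeat one order of the fish, as on NW_017616141.1 with fish 2 highest and fish 3 lowest in 5 of 5 loci.

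No single fish accounted for the differing loci. Counting the fish farthest from the middle value, fish 2 stood apart in 183 of the 418 loci (43.8%), fish 1 in 159 (38.0%) and fish 3 in 76 (18.2%). Fish 2 was above in 98 and below in 85 of its loci, fish 1 above in 75 and below in 84, and fish 3 above in 38 and below in 38. The small excess of low loci in fish 1 depends on the scaling. When each fish was scaled to the 75th percentile of its expressed loci, fish 1 was above in 94 and below in 70, and fish 3 above in 29 and below in 44.

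For each fish the loci that stood farthest apart were examined, at an FPKM of at least 10 in 1 or more fish. Fish 1 stood below the others at mRNA29070 (above), at mRNA20092 (NC_031976.1, minus strand, 22334488 to 22339181, 10 exons), with 2.75, 233 and 95.1, and at mRNA39446 (NW_017615932.1, minus strand, 122064 to 122292), with 0, 28.0 and 24.2. It stood above them at mRNA17623, at mRNA28806 (NC_031982.1, minus strand, 23070375 to 23073129), with 84.4, 2.47 and 2.82, and at mRNA38740 (NW_017615899.1, plus strand, 112820 to 120431), with 20.7, 0 and 0.

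Fish 2 stood below the others at mRNA27457, mRNA24721 and mRNA11498 (NC_031970.1, plus strand, 34372170 to 34378305), the last with 27.2, 0.0227 and 23.5. It stood above them at mRNA10788, at mRNA27929 (NC_031982.1, plus strand, 4191131 to 4195081), with 0.0189, 39.6 and 0.0358, and at mRNA37308 (NW_017614395.1, minus strand, 13414 to 14906), with 0, 36.5 and 0. Of these, mRNA27929 rests on 1094 fragments in fish 2 and on at most 1 in the others.

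Fish 3 stood below the others at mRNA12051, mRNA37288 and mRNA16068. It stood above them at mRNA6289 (NC_031967.1, minus strand, 13140474 to 13142854, 6 exons), with 10.9, 3.72 and 260, at mRNA12058 (NC_031971.1, plus strand, 13704105 to 13705839), with 0, 0 and 36.0, and at mRNA41189 (NW_017616221.1, minus strand, 7351 to 15091), with 0, 0 and 23.5. On NC_031971.1, mRNA12058 lies downstream of mRNA12051 on the same strand, with mRNA12053 and mRNA12054 between them. Both were listed because fish 3 stood apart in them, below in the one and above in the other. Their opposite values in fish 3 follow from that choice and show no link between them.

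One order of the fish was frequent among the abundant differing loci. Of the 244 loci at an FPKM of at least 10, 78 (31.97%) had fish 2 highest, fish 3 in the middle and fish 1 lowest, with a median of 2.33-fold from middle to highest and 3.45-fold from lowest to middle. The order fish 1, fish 3, fish 2 followed with 65 loci (26.6%). Fish 3 was in the middle in both. Over all 12721 expressed loci the shares of these orders were 22.6% and 14.0%.

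Differing loci tended to lie next to one another. Of 382 differing loci followed by another expressed locus on the same sequence, 56 (14.7%) were followed by a differing one, against 3.08% of next loci over all 12313 consecutive pairs. In 37 of the 56 pairs both loci had the same order of fish. That share was not computed over all consecutive pairs. Over all 418 differing loci the most frequent order held 25.6%. Fish with equal values were ordered by their number, so loci listed at 0 in the same 2 fish count as the same order. The runs described next were chosen after their values were seen, and no test was made of them.

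One run was on NC_031978.1 between 5340220 and 5416453, where 5 consecutive loci of 13 or 14 exons all had fish 2 lowest. They are mRNA22602 (4.91, 0.862 and 6.67), mRNA22603 (30.1, 6.45 and 51.3), mRNA22604 (5.83, 1.51 and 10.6), mRNA22606 (5.81, 1.04 and 7.42) and mRNA22608 (12.7, 0.118 and 12.4). The first 4 lie on the plus strand with fish 3 highest, at 6.99-fold to 7.95-fold above fish 2, and the last lies on the minus strand. Overlapping the start of the run on the minus strand, mRNA22599 (5337244 to 5341660) was at 2.50, 3.24 and 4.19, without the drop in fish 2.

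The common order of fish 2, fish 3, fish 1 recurred among neighbours. On NW_017615339.1, mRNA38054 (16.6, 95.2 and 43.1), mRNA38056 (85.5, 724 and 270) and mRNA38058 (44.3, 230 and 101.6) lie on the plus strand between 266375 and 287227, and each has 11 exons. Fish 2 was 5.74-fold, 8.47-fold and 5.19-fold above fish 1 in them. Another locus of that stretch, mRNA38057 on the minus strand, had another order, at 1.08, 4.81 and 0.550. On NC_031970.1, mRNA10899 (18947118 to 18949761) was at 411, 2726 and 1200 and mRNA10900 (18955765 to 18958787) at 379, 2253 and 1106, both on the minus strand with 8 exons. On NC_031976.1, mRNA1181 (minus strand, 1251597 to 1266954) was at 838, 4376 and 2007. On the plus strand there, mRNA19211 and mRNA19213 had the same order, at 113, 528 and 299 and at 44.5, 225 and 70.6. Of these, mRNA19213 (1252028 to 1255886) lies inside the span of mRNA1181. Whether reads of the abundant strand enter its values was not tested. Between mRNA19211 and mRNA1181, mRNA19212 was steady, at 2.30, 1.95 and 2.32. In the pair on NC_031970.1 fish 3 was 2.92-fold above fish 1 in both members, and fish 2 was 6.63-fold and 5.94-fold above fish 1. Loci that are near-identical copies could share reads, and this was not tested.

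In another pattern, fish 2 was highest in every locus of some small sequences. Fish 3 was lowest, or level with fish 1 at 0, and mostly near 0. On NW_017616141.1 all 5 loci differed, such as mRNA41013 at 19.9, 73.0 and 0.643 and mRNA41008 at 8.32, 24.96 and 0.551. On NW_017614475.1 all 3 loci differed, such as mRNA37341 at 14.7, 50.8 and 0 and mRNA37343 at 13.2, 49.7 and 0.499. On NW_017615071.1 both loci differed, mRNA37783 at 13.0, 47.2 and 0 and mRNA37786 at 41.8, 165 and 4.52. Across the 6 loci named here fish 2 was 3.002-fold to 3.955-fold above fish 1. Of the other members, mRNA41017 was 3.65-fold and mRNA41016 4.54-fold above fish 1 in fish 2, mRNA41010 was at 0.225, 6.07 and 0.0415, and mRNA37342 at 0, 8.77 and 0. Fish 2 was the highest in each of these loci. On NW_017616126.1 the 4 loci were high in fish 2 alone, with summed levels of 1.63, 60.3 and 2.05.

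A repeated block on NW_017615899.1 was almost wholly listed in fish 1. Between 99278 and 136255 lie 25 loci, of which 22 are single exons under 100 bases. Of these, 11 are 71 or 72 bases long and 11 are 82 bases long, all on the plus strand, and for the most part they alternate. Loci of one length that follow each other within 3000 bases do so at steps of 2053 to 2072 bases. In fish 1 the 22 were at an FPKM of 0.0460 to 4.14, and in fish 2 and 3 all of them were listed at 0. Of the 3 longer loci in the block, mRNA38740 was at 20.7, 0 and 0, mRNA38730 at 6.73, 0 and 0, and mRNA38722, on the minus strand at its start, at 4.58, 0.0440 and 0.0365. Of the 25 loci, 14 reached an FPKM of 1 in fish 1, and 5 met the limit for differing loci. In all, the block held 276 fragments in fish 1 and fewer than 1 in each of the others. Most of those in fish 1 lay on the 3 longer loci, with 125 on mRNA38740, 68.7 on mRNA38722 and 54.7 on mRNA38730. None of the 22 short loci held more than 3.95 fragments in fish 1. Taken singly, their listed 0 in fish 2 and 3 is therefore close to what few fragments can resolve. Beside it, between 148462 and 186347, mRNA38758 was at 174, 185 and 126 and mRNA38763 at 22.7, 17.5 and 20.996, present in all fish. Exons as short as these are shorter than or close to a read of 75 bases, so their FPKM is imprecise.

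Differing loci made up a larger share of the expressed loci on unplaced sequences than on the large ones. Of 951 expressed loci on unplaced sequences 80 (8.41%) differed, against 336 of 11741 (2.86%) on the large sequences, so that 19.1% of differing loci were unplaced. Among loci with 4 or more exons, a limit chosen after seeing the data, the shares were 4.79% and 2.08%. Steady loci made up a smaller share of the expressed loci on unplaced sequences, 37.2% against 52.4%. Among the large sequences NC_031968.1 had the highest share of differing loci, 28 of 403 (6.95%), and NC_031987.1 the lowest, 6 of 479 (1.25%). The next highest was 4.09%. No test was made of these shares, since loci of a sequence are not independent.

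A class of unplaced loci stood out for level. The class and its limits of exon number and span were chosen after the values were seen. The contrast given next is therefore in part built in by that choice. Of 43 unplaced loci with at most 3 exons and a span of 12000 to 15000 bases, 9 (20.9%) had a mean FPKM of at least 100, against 2 of 121 (1.65%) on the large sequences. Among them mRNA37292 (NW_017614364.1, plus strand, 2073 to 16413) was at 4130, 3471 and 1069 and mRNA37190 (NW_017614206.1, minus strand, 3129 to 16177) at 2190, 1846 and 2062. On the opposite strand of the same span, mRNA37189 was at 290, 233 and 378. Both strands of that span are among the 9, as are mRNA37289 and mRNA37288, which also share a span. The 9 loci therefore do not all lie at separate places. Whether reads of the more abundant strand enter the lower values was not tested. Steady and unsteady loci occurred side by side in this class.

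In FPKM as deposited, the steadiest abundant loci lay below the head of the ranking. Of 507 loci with a mean FPKM of at least 100, 256 (50.5%) were steady, 45 (8.88%) differed, and 14 had a range under 0.1. The smallest range was that of mRNA27007 (NC_031981.1, plus strand, 19489976 to 19499549, 21 exons), at 925, 926 and 919. Next came mRNA25644 (NC_031980.1, plus strand, 18264942 to 18280825, 19 exons), at 796, 785 and 784, and mRNA4098 (NC_031965.1, minus strand, 23599906 to 23610331, 16 exons), at 140, 139 and 136. Each of these 3 differed between fish by less than 3% of its level.

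The other 7 of the 10 steadiest were at means of 104 to 796. They were mRNA36136 (NC_031987.1, 23040508 to 23043211), mRNA31217 (NC_031984.1, 10830925 to 10833477), mRNA25508 (NC_031980.1, 13951774 to 13957129), mRNA36855 (NW_017613886.1, 1236569 to 1241186), mRNA10936 (NC_031970.1, 19473139 to 19475288), mRNA9901 (NC_031969.1, 33924900 to 33928980) and mRNA27999 (NC_031982.1, 6393849 to 6396240). The locus mRNA36855, at 181, 181 and 173, begins close downstream of mRNA36852, one of the 20 leading loci, which ranged from 6434 to 10619. Steadiness to this degree depends on the scaling. Scaled to the 75th percentile, the 10 loci had ranges of 0.190 to 0.310, with fish 1 the highest in mRNA27007, yet all stayed under 0.5. Under that scaling mRNA12868 (0.097), mRNA3168 (0.101) and mRNA19717 (0.127), all among the 20 leading loci, had smaller ranges than any of the 10. Which abundant loci are the steadiest therefore also depends on the scaling.

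In loci of several transcripts, the leading transcript often changed from fish to fish. Of 4524 such loci that reached an FPKM of 1 in each fish, 1443 (31.9%) had a different most abundant transcript in at least 1 fish, and 775 of these (53.7%) were steady in their sum, against 57.9% of all 9900 loci at that minimum. At an FPKM of at least 10 it was 237 of 1000 (23.7%), and at least 100 it was 20 of 143 (14.0%). The share was lower at higher levels. How far the division of reads between overlapping transcripts contributes was not tested.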

How the data were processed

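Liver RNA of 3 ON males (1 library per fish) was analysed. After rRNA depletion, stranded libraries were sequenced with paired reads of 75 bases. The authors aligned reads with HISAT2 2.1.0 to ASM185804v2, assembled them with StringTie using the reference annotation (WR), and merged the fish into one transcript set. The paper also describes removing unexpressed and duplicate transcripts and merging similar ones within a locus. Whether the tables used here come after that step was not checked. They deposited FPKM and coverage per transcript. Read counts were not used here, so count models were not fitted.

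Stranded transcripts with overlapping spans were joined into loci and FPKM summed. The exon number given for a locus is the highest among its transcripts. Spans can join neighbouring genes. Aligned bases came from coverage divided by FPKM, constant per library, and fragments from coverage times length over 150. The sources used here do not say whether multiply aligned reads enter repeatedly. Values were compared as log2(FPKM + 1) without tests. Loci named were the 20 with the highest mean, the 10 with the widest range and, for each fish, 3 farthest above and 3 farthest below at an FPKM of at least 10, the 10 steadiest at a mean of at least 100, the leading locus of each sequence with over 5% of FPKM, and mitochondrial genes. Others were chosen after their values were seen. Members, limits and lists were chosen with earlier results of these data known. PN tables served only to count loci.

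Mitochondrial names came from the RefSeq gene table of O_niloticus_UMD_NMBU, matched for 37 genes. No sequence or nuclear gene name was used here. Alternatives covered minimums, pseudocounts, scaling, fragments, unjoined transcripts and leaving out each library. Scripts used pandas 2.3.3, numpy 2.4.6, matplotlib 3.10.9 and scipy 1.17.1 under Python 3.11.15. Joining was checked on 600 simulated spans with 0 wrong loci. Spans drawn without a strand were dropped before joining, so the check covered only the stranded ones.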

Additional observations from a re-analysis of the deposited data

How the results depend on the processing

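Of 77 alternative values, 52 stayed within set limits and 25 moved. The limits were the SD of the fish around their mean, the 95% binomial interval of a share of loci, or 1.5 times the count. A mean over 2 fish always lies within the SD of all 3, so shares of FPKM without one fish could not move. The binomial interval treats loci as independent, which they are not. The tally is therefore no measure of how stable the results are. Expressed loci numbered 5713 at an FPKM of at least 5 and 23318 above 0, and 12161 to 12371 without one fish. The 10 loci with the most aligned bases took 22.7% of the bases held by loci. The 10 leading by FPKM took 35.3% to 40.4% of FPKM without one fish. Differing loci numbered 1197 with a pseudocount of 0.1, 149 with 5, 184 where each fish reached an FPKM of 1, 2121 at a range of at least 1, 150 at a range of at least 3, and 1212 as single transcripts. They numbered 162 (without fish 2) to 291 (without fish 3), and 201 without fish 1, since a range over 2 fish cannot exceed that over 3. Scaling left them at 428 (75th percentile) and 426 (median ratio). Steady loci numbered 2701 at an FPKM of at least 5, 3252 at a range under 0.3, and 8375 to 9160 without one fish. Without its leading locus the share of FPKM fell to 12.2% on NC_031978.1, 7.72% on NC_031976.1, 5.29% on NC_031971.1, 2.83% on NC_031979.1, 0.751% on the mitochondrial sequence and 5.28% on unplaced sequences. Loci with a changed leading transcript numbered 237 at an FPKM of at least 10. On unplaced sequences 10.6% of loci with at least 50 fragments, 17.1% at an FPKM of at least 10 and 4.79% with 4 or more exons differed, and on the large sequences 6.88% and 2.08% in the last pair, settings chosen after seeing the data. With the locus mRNA23082 left out, also chosen after seeing the data, the 10 leading loci took 34.9%, 31.6% and 34.3%. Beyond the settings' construction, causes were not tested. No paired analysis was possible because the 3 fish form one group and no groups were compared. Each fish has 1 library, so library and fish cannot be told apart, and low loci rest on few fragments.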

Other observations

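Transcripts joined on either strand gave 21497 loci in place of 23392. Of the 20 leading loci, mRNA36852 and mRNA3123 also held opposite-strand loci, mRNA36854 at 295, 100.4 and 226 and mRNA27256 at 102.5, 220 and 135 in fish 1, 2 and 3. These were 1.56% to 2.77% and 1.60% to 3.94% of the level on the other strand. The order of the fish in mRNA36854 was that of mRNA36852, and the order in mRNA27256 was not that of mRNA3123.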
